A study of Mus musculus with 52 samples.

Results

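The potassium channel genes of the mouse were followed in Cilia-APEX-IMCD3 cells, an immortalised line from the inner medullary collecting duct that carries a peroxidase directed to the primary cilium. The family was picked with earlier results of these data known, among them that Kcnh2 was higher in mutants, and its members were taken by name, as every gene symbol that begins with Kcn followed by letters and a number, which gave 97 of the 24421 symbols counted. RNA was sequenced in 52 libraries, which the labels sort into 13 clones, counted separately in each state, with 4 libraries per clone. The libraries of a clone are technical replicates and each mutant line is 1 clone, so that p-values over libraries measure mainly technical spread and values are given by clone.

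Both genes edited in the mutants, Wdr34 and Wdr60, encode intermediate chains of dynein-2, the motor of retrograde transport in the cilium. All mutant clones carry homozygous missense alleles made by CRISPR base editing, and the controls are clones that went through the same procedure with an editor and no targeting sequence. Ciliated cells, which the study obtained by serum starvation, were a Wdr60 clone, Wdr34 clones labelled 1 and 3, and controls named A4, D8, G7 and H12. Among the non-ciliated cells there were 1 Wdr34 clone, 1 Wdr60 clone and controls named AB, 1, 2 and 3. The labels give no allele for the Wdr34 clones 1 and 3, and they give the same 10% serum for every library. The study describes fewer clones than these, so that some were sequenced in both states, but the labels do not pair them, and the states were compared as unpaired. The study also notes an unintended heterozygous Wdr34 change in 1 of its Wdr34 clones, which it did not include among the non-ciliated cells. State, serum and time of sequencing cannot be told apart.

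Potassium channels set the resting potential of epithelial cells and, in the collecting duct, secrete and recycle potassium. A channel is built from pore subunits, each of which lines the pore with a short selectivity filter, and from accessory subunits that lack a pore. Voltage-gated subunits open on depolarisation, inward rectifiers and tandem-pore-domain subunits carry resting and background currents, and most ion-activated subunits respond to intracellular calcium or sodium.

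By symbol, the members were 40 voltage-gated subunits, 15 inward rectifiers, 14 tandem-pore-domain subunits, 8 ion-activated subunits, 16 accessory subunits and 4 noncoding transcripts. The filter was searched in the translated coding sequence as threonine or serine, any residue, glycine, then tyrosine, phenylalanine or leucine, then glycine. All 77 pore subunits held it, all 14 tandem-pore-domain subunits held it at least 2 times, and 0 of the 16 accessory subunits held it, against 5.42% of 21562 genes with a coding sequence. The planned search had no leucine, which the second pore of Kcnk1 needs for a match, so these counts are a description. With leucine, 2 voltage-gated subunits, Kcnh2 among them, also matched upstream of the filter. The 45 coding bases around the filter are shown for the members on which the comparisons turn, with the 15 bases of the filter in capitals, 5′ to 3′ on the coding strand (GRCm38, GENCODE vM21).
Kcnh2, chr5:24325540-24325584, minus strand, exon 7: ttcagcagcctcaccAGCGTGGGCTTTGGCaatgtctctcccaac
Kcnh3, chr15:99232914-99232958, plus strand, exon 8: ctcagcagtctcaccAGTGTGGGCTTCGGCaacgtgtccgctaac
Kcnj16, chr11:111024889-111024933, plus strand, exon 3: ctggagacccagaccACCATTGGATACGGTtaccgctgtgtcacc
Kcnj4, chr15:79485352-79485396, minus strand, exon 2: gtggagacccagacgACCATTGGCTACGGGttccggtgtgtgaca
Kcnk1, first pore, across an exon junction, chr8:125995793-126025034, plus strand: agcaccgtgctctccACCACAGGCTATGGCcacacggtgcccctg
Kcnk1, second pore, exon 2, chr8:126025314-126025358, plus strand: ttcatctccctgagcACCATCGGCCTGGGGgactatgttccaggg
Kcnk10, first pore, across an exon junction, chr12:98490043-98496214, minus strand: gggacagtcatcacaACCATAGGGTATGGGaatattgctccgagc
Kcnk10, second pore, across an exon junction, chr12:98436333-98440634, minus strand: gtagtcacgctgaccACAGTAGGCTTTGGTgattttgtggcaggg

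Kcnh2 and Kcnh3 shared 36 of the 45 bases and Kcnj16 and Kcnj4 shared 37, whereas Kcnh2 and Kcnj16 shared 22. The tandem-pore-domain pair Kcnk1 and Kcnk10 shared 25 bases in the first pores and 29 in the second, which is near the 25 shared by Kcnh2 and the first pore of Kcnk10, members of different families. Within Kcnk1, the stretches of the first and the second pore shared 22 of 45 bases. These are gene sequences of the reference; no allele of the clones was read.

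Library totals were 14816218–28084979 counts in ciliated controls, 15493164–21100046 in ciliated mutants, 15617398–21085697 in non-ciliated controls and 16092399–20505629 in non-ciliated mutants, so that 1 CPM (CPM being the count scaled to a common library size with the TMM factors of edgeR) was 14.8 to 28.5 counts. Defining genes of renal epithelium were present, with Cdh16 at 154 CPM or more in every clone. Genes of the collecting duct were mixed. Aqp2, the water channel of principal cells, reached at most 0.02 CPM, whereas Tfcp2l1 was at 63.8–254 CPM over the clones. All others listed for the collecting duct reached at most 8.06 CPM, a value of Hsd11b2 in a ciliated control. Of the controls, G7 had 14.7 CPM of the epithelial cadherin Cdh1 against 609–649 in the other ciliated controls, and control 2 had 4.27 against 251–391 in the other non-ciliated controls. The kidney cadherin Cdh16 went the other way, at 857 CPM in G7 against 338–457 and at 269 in control 2 against 208–246. Wdr34 clone 3 was low in the keratin Krt8, at 76.5 CPM against 542 and 559 in the other ciliated mutants, and in Epcam, at 286 against 820 and 811. Cdh16 went the other way there too, at 587 against 437 and 508, as did Tfcp2l1, at 254 against 191 and 135. Clones were set apart in this way after their values were seen, and values without these clones are given beside the results that they change or in the section on processing. Summed endothelial and neuronal markers stayed under 0.5 CPM in each clone. Of the leukocyte markers Adgre1 was at 0 in every clone and Ptprc at most 0.89 CPM, while Csf1r was at 169–302 CPM in ciliated and 15.9–48.8 in non-ciliated clones. Since the alleles are missense changes, the counts of Wdr34 and Wdr60 do not check the labels.

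Most potassium channel genes were silent or nearly so in these cells. Of the 97 members, 24 had 0 counts in all 52 libraries, and 48 of the other 73 never reached 10 counts in any library. A clone mean of at least 1 CPM in all 13 clones was found for 7 members, and in any clone for 19. A count of 0 in a library allows up to 3 counts, that is 0.105–0.203 CPM.

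Members at or near 0 included channels for which the collecting duct is known. Kcnj1 (ROMK), the apical potassium secretion channel of principal cells, had 0 counts in all libraries. Kcnma1, the pore of the large-conductance calcium-activated channel, had 1 count over all libraries. Kcnj10 (Kir4.1), the usual basolateral partner of Kcnj16, was low but detected, with 123 counts in 34 of the 52 libraries, and reached 0.444 CPM in control AB and less elsewhere. Voltage-gated subunits were the largest family, with 14 of 40 at 0 counts and 0 of 40 at 1 CPM or more in every clone.

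Per length, as CPM per kb of exon, the tandem-pore-domain subunits made up 78.3% of the family's summed level on average over clones, from 60.9% in the Wdr34 clone 3 to 88.2% in control 1. Accessory subunits made up 8.99% (5.43–18.3%), inward rectifiers 8.52% (4.01–18.8%), voltage-gated subunits 2.2% (0.321–6.3%) and ion-activated subunits 1.99% (0.567–3.79%). The lowest share of tandem-pore-domain transcripts in the non-ciliated clones, 69%, was in control 2, and the lowest in the ciliated controls, 70.9%, was in G7.

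**Figure D1:**
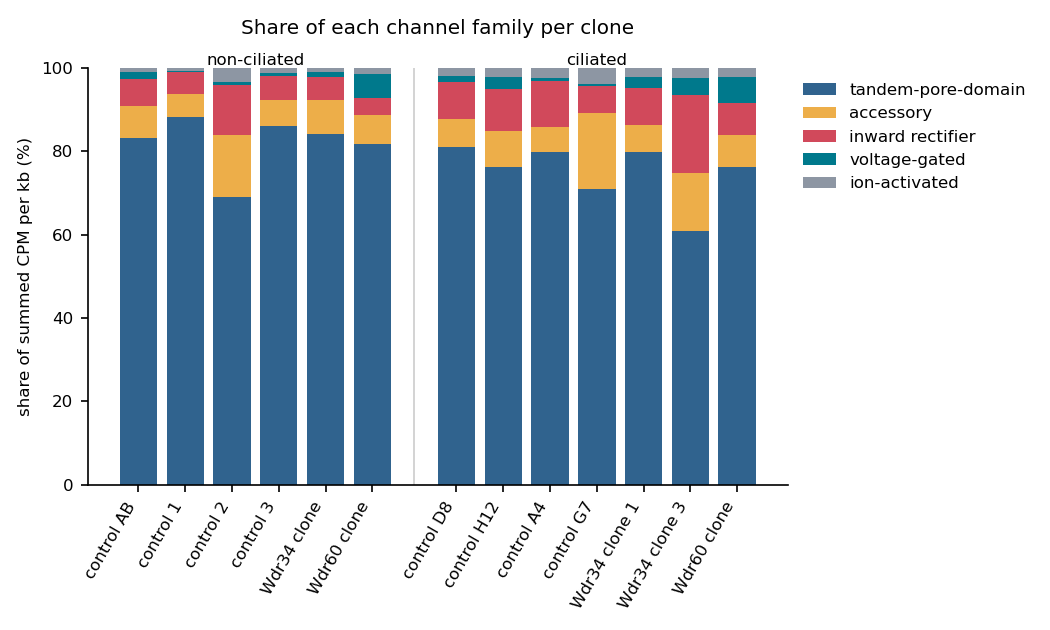
Share of each channel family in the summed level per exon length (CPM per kb, %) for the 13 clones, as stacked bars from 0 to 100%. The tandem-pore-domain subunits fill 60.9% to 88.2% of each bar, and the voltage-gated part is widest in the Wdr60 clones, at 5.72% in non-ciliated and 6.3% in ciliated cells. Kcnh2 alone, known beforehand to be higher in mutants, holds 5.79% in the ciliated Wdr60 clone.

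A pair of genes carried most of that level. Kcnk1 (TWIK1, chr8:125993655-126030685), a weakly conducting background channel, held 60.6% on average, between 24% in control 2 and 72.4% in control AB. Kcnk5 (TASK2, chr14:20140057-20181782), a background channel opened by alkaline pH in the kidney, held 16.9%, between 8.43% in the non-ciliated Wdr60 clone and 44.2% in control 2. Then came Kcnab3, a cytoplasmic beta subunit of voltage-gated channels, with 6.95%, Kcnj16 with 4.35%, Kcnj4 with 3.19%, Kcnn1 with 1.95%, Kcnh2 with 1.55% and Kcnab2 with 1.52%.

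Kcnk1 was at 188 CPM in D8, 185 in H12, 185 in A4 and 93.7 in G7, and at 208, 106 and 182 in the ciliated Wdr34 clone 1, Wdr34 clone 3 and Wdr60 clone. In non-ciliated cells it was at 170 in AB, 137 in control 1, 32.9 in control 2 and 148 in control 3, and at 102 in the Wdr34 and 147 in the Wdr60 clone. The lowest control in each state was the one with little Cdh1, and mutants lay within or close to the range of the controls; the log2 fold change was 0.01 (SE 0.16) in ciliated and 0.02 (SE 0.30) in non-ciliated mutants (edgeR, BH-adjusted p = 0.987 and 0.966). Without G7 it was -0.19 in ciliated mutants (adjusted p = 0.279), and without control 2 it was -0.30 in non-ciliated mutants (adjusted p = 0.0441), so that its direction turned in both states.

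Kcnk5 had its highest values in the same clones, 92.4 CPM in control 2 and 81.0 in G7. The other controls had 35.1 in AB, 68.4 in control 1, 52.2 in control 3, 56.3 in D8, 45.1 in H12 and 68.8 in A4. Mutants had 44.8, 60.1 and 39.4 in the ciliated Wdr34 clone 1, Wdr34 clone 3 and Wdr60 clone, and 49.1 and 26.2 in the non-ciliated Wdr34 and Wdr60 clones, which overlapped the controls in both states. In ciliated mutants its change was -0.39 log2 units (SE 0.13, adjusted p = 0.0863), and in non-ciliated mutants -0.72 (SE 0.22, adjusted p = 0.0292, edgeR), under the limit of 1 used for a call. Without G7 the change was -0.25 in ciliated mutants (adjusted p = 0.166), and without control 2 it was -0.47 in non-ciliated mutants (adjusted p = 0.104).

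**Figure D2:**
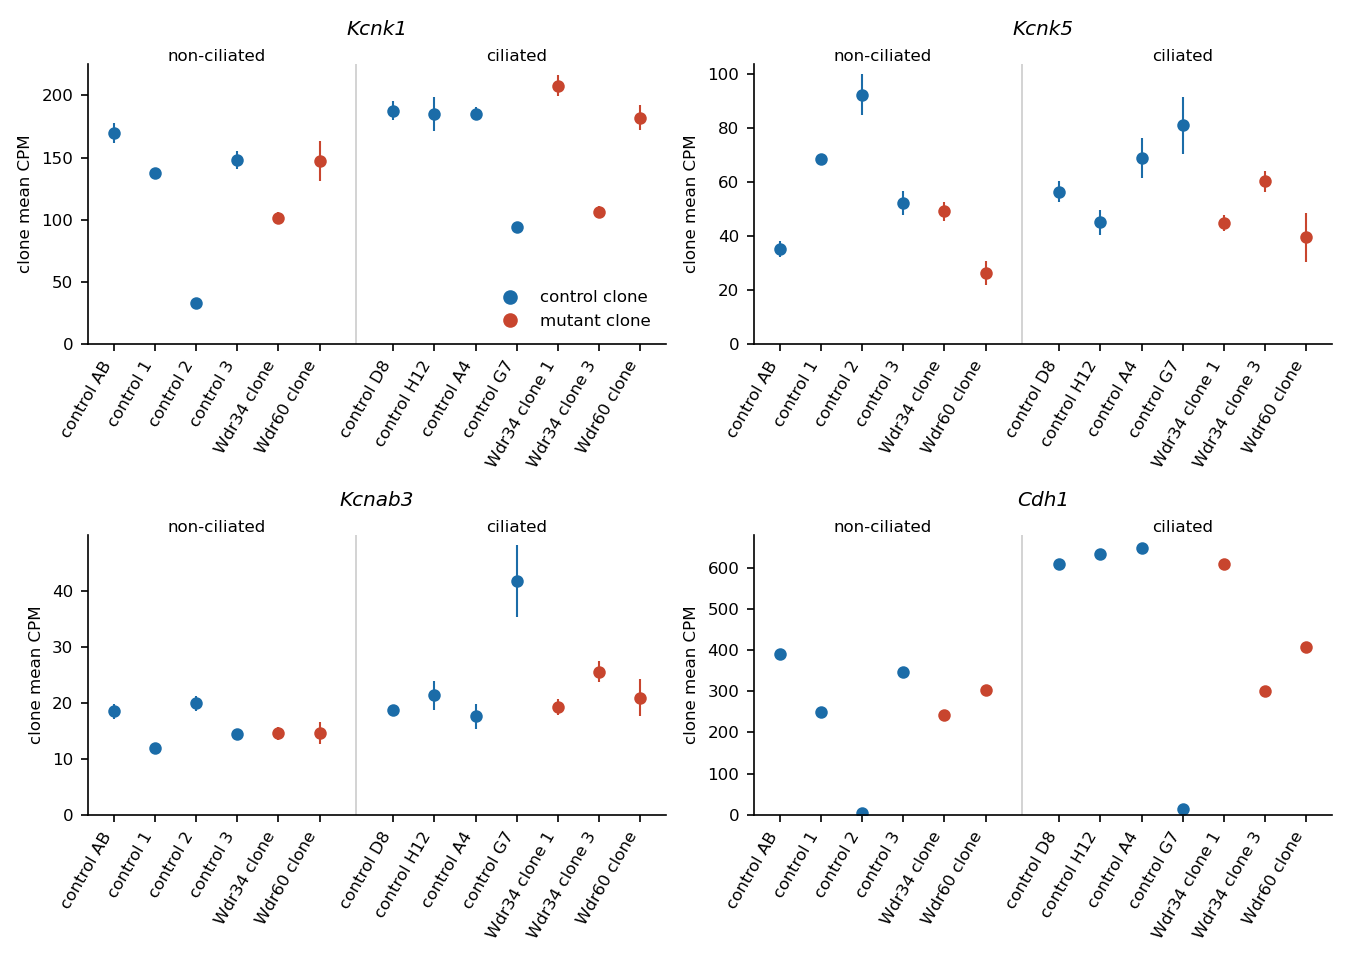
Clone mean CPM of Kcnk1, Kcnk5, Kcnab3 and, for comparison, the epithelial marker Cdh1 in the 13 clones; bars are the SD over 4 libraries, shown for the channel genes. The control clones 2 and G7, with Cdh1 at 4.27 and 14.7 CPM, have the lowest Kcnk1 of their state (32.9 and 93.7) and the highest Kcnk5 (92.4 and 81.0).

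The first comparison asked which potassium channel genes differ between mutants and controls of ciliated cells. Kcnh2 was higher in all 3 mutant clones than in all 4 controls, and it was the 1 member of 15 tested that passed (a BH-adjusted p below 0.05 together with a change of 1 or more log2 units), against 0.418% of 11950 genes called higher. Kcnh2 was known to be higher when the family was picked, so this count lends no support, and no other member was called. Called lower were 0 of 15 members, against 0.226% of all genes; 1 of the 15 was lower at an unadjusted p under 0.05 by edgeR and also by DESeq2, which called 0 lower as well. The median log2 fold change was -0.07 over members and -0.01 over all genes.

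Kcnh2 (chr5:24319589-24351684) encodes the ERG1 pore subunit of the rapid delayed rectifier current, known for repolarising the heart. In ciliated cells it was at 10.1 CPM in Wdr34 clone 1, 17.8 in Wdr34 clone 3 and 34.5 in the Wdr60 clone, and at 2.79 in D8, 7.75 in H12, 3.35 in A4 and 0.280 in G7. The lowest mutant library, of Wdr34 clone 1, had 8.78 CPM and the highest control library, of H12, 9.03, so single libraries met while clone means did not overlap. Mutants had 20.8 ± 12.5 CPM (SD, n = 3 clones) and controls 3.54 ± 3.11 (n = 4). edgeR put the difference at 2.54 log2 units (SE 0.45; BH-adjusted p = 0.00194). An exact permutation over clones, 2-sided, gave p = 0.0571 on log2 CPM and p = 0.0286, the smallest possible, on CPM. Adjusted over all genes tested, the exact p on log2 CPM was 1. That Kcnh2 was higher was known when the family was picked, so its values in mutants of both states are a description and no independent support.

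The level of Kcnh2 in the controls ran from G7 to H12. Leaving out 1 clone at a time gave log2 fold changes of 1.96 (without the Wdr60 clone) to 3.28 (without H12), and 2.15 without G7, each with an adjusted p under 0.05. With the libraries of a clone summed, the log2 fold change was 2.54 but the adjusted p was 1.

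Kcnj16, the Kir5.1 inward rectifier (chr11:110968033-111027968), which forms the basolateral potassium channel of the distal nephron together with Kir4.1, differed most among the ciliated mutants. It was at 64.3 CPM in Wdr34 clone 3, above all controls, at 21.7 in Wdr34 clone 1, within them, and at 7.70 in the Wdr60 clone, below them. Controls had 24.8 in D8, 27.6 in H12, 30.7 in A4 and 9.60 in G7. The group difference was a log2 fold change of 0.43 (SE 0.35, adjusted p = 0.543, edgeR), and it was -0.68 without Wdr34 clone 3. That clone, low in Krt8 and Epcam but not in Cdh16, also held 29.1 CPM of the fibroblast marker Dcn, against at most 1.03 in the other 12 clones. Another fibroblast marker, Col1a1, went the other way, at 1.17 CPM against 2.27 in Wdr34 clone 1 and 2.24 in the Wdr60 clone. The part of these markers in the Kcnj16 of Wdr34 clone 3 was not tested.

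Clone means did not overlap for 2 of 15 members, Kcnh2, which was known to be higher, and Kcnq1ot1, against 1.95% of all genes. Kcnq1ot1, a noncoding transcript that lies within Kcnq1 on the opposite strand, was at 2.54, 2.81 and 2.91 CPM in the mutants and 2.96–3.98 in the controls (log2 fold change -0.27, SE 0.16, adjusted p = 0.376, edgeR). The strand setting of the counting is not given in the sources used here, so its reads cannot be told apart from unspliced Kcnq1. The next member by p was Kcnk10, at 1.14 ± 0.381 CPM in mutants (n = 3) and 0.730 ± 0.159 in controls (n = 4), or 0.63 log2 units (SE 0.20, adjusted p = 0.0774, edgeR).

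**Figure D3:**
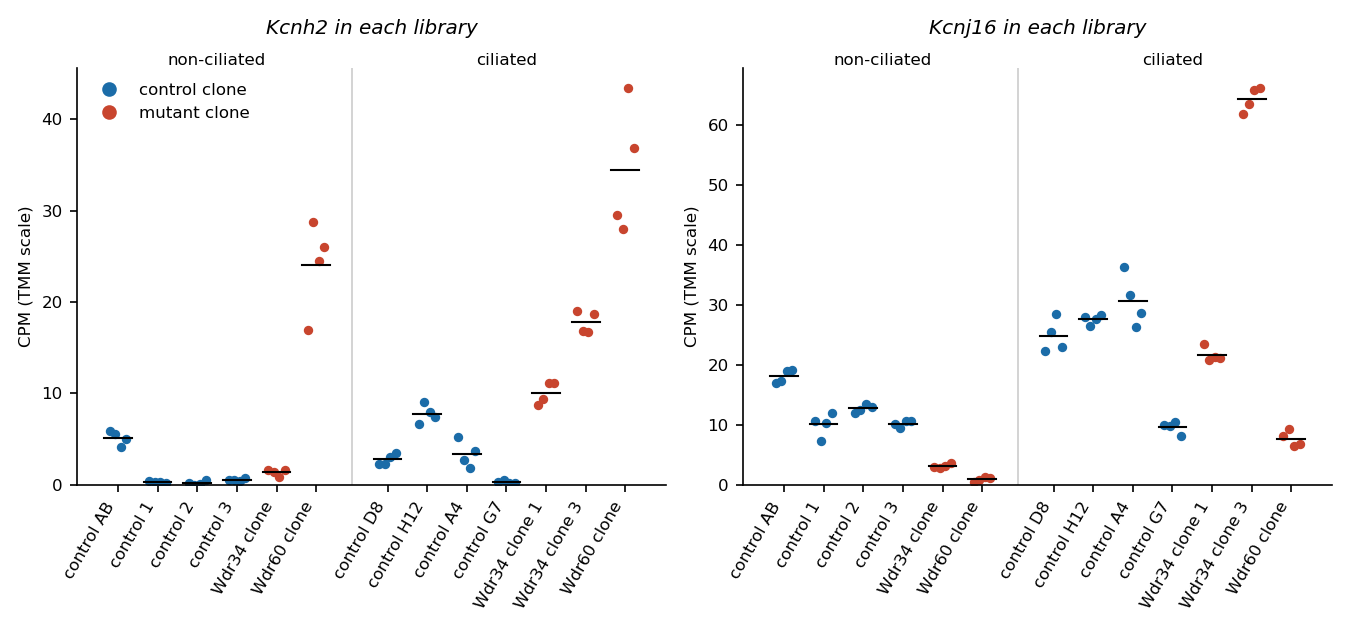
CPM of Kcnh2 and Kcnj16 in each of the 52 libraries by clone, controls in blue and mutants in red, with a bar at the clone mean. Kcnh2 is highest in the Wdr60 clones (means of 24.1 and 34.5), and Kcnj16 is lowest in the non-ciliated mutants (3.12 and 0.913) but highest in the ciliated Wdr34 clone 3 (64.3).

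The same comparison in non-ciliated cells gave 1 member higher and 1 lower of 14 tested, against 0.491% and 2.57% of 12012 genes. Kcnj16 was lower in both mutant clones than in every control. Kcnh2, known beforehand to be higher, was the 1 higher member, with 1 of the 2 mutant clones above the controls. The median log2 fold change was -0.18 over members and 0.00 over all genes. Among renal epithelial markers, Cdh16 (-0.62, adjusted p = 1.56e-06), Pax2 (-0.68, adjusted p = 0.017) and Pax8 (-0.47, adjusted p = 0.025, edgeR) were lower, under the limit of 1. Cdh1, Epcam, Krt8 and Krt18 had changes of 0.13, 0.38, 0.26 and 0.04 log2 units. The part of these markers in Kcnj16 was not tested.

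Kcnj16 was at 3.12 CPM in the Wdr34 clone and 0.913 in the Wdr60 clone, and at 18.1 in AB, 10.1 in control 1, 12.7 in control 2 and 10.2 in control 3. The highest mutant library had 3.67 CPM and the lowest control library 7.34. Mutants had 2.02 ± 1.56 CPM (SD, n = 2) and controls 12.8 ± 3.76 (n = 4). edgeR gave -2.66 log2 units (SE 0.30; BH-adjusted p = 4.01e-06), and the exact permutation over clones p = 0.0667, the smallest that 2 against 4 clones allow. Leaving out each clone gave -3.79 to -2.03, called in each case, and -2.67 without control 2; with the libraries of a clone summed the adjusted p was 0.976.

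Kcnh2 was at 24.1 CPM in the non-ciliated Wdr60 clone and at 1.37 in the Wdr34 clone. Controls had 5.14 in AB, 0.284 in control 1, 0.190 in control 2 and 0.551 in control 3. The Wdr34 clone thus lay within the controls and the Wdr60 clone above them all. Groups were 12.7 ± 16.1 CPM (SD, n = 2) against 1.54 ± 2.41 (n = 4), a difference of 3.03 log2 units (SE 0.76; edgeR, adjusted p = 0.00957; exact permutation over clones, p = 0.2). Without the Wdr60 clone the log2 fold change was -0.18 (adjusted p = 0.933), and without AB it was 5.19 (adjusted p = 1.47e-05).

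Clone means did not overlap for 2 of 14 members, Kcnj16 and Kcnj4, against 13% of all genes. Kcnj4 (Kir2.3, chr15:79480226-79512511), a strong inward rectifier, was at 5.33 and 6.16 CPM in the Wdr34 and Wdr60 clones and at 3.28, 3.35, 5.11 and 3.69 in AB and controls 1, 2 and 3 (log2 fold change 0.57, SE 0.17, adjusted p = 0.0271, edgeR). Kcnk2 (TREK1), a background channel opened by stretch and lipids, was at 2.91 and 2.21 CPM in the mutants and 0.166–2.67 in the controls (log2 fold change 1.03, SE 0.43, adjusted p = 0.104; 0.65 without control 2). No member separated mutants from controls in the same direction in both states.

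**Figure D4:**
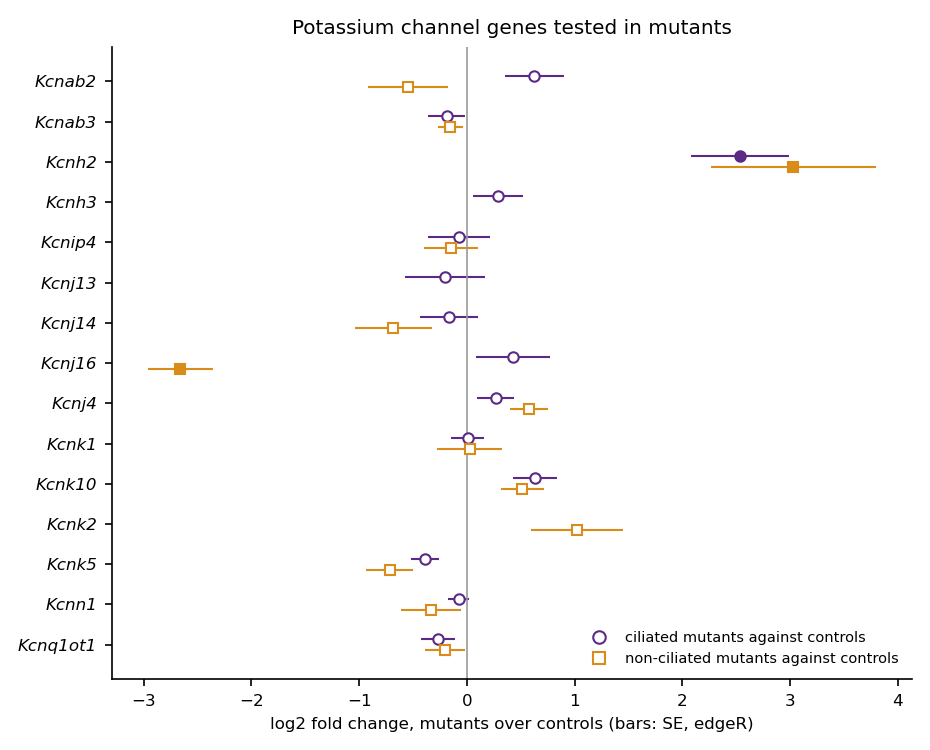
Log2 fold changes of mutants over controls with their SE (edgeR) for the members tested in ciliated cells (circles) or non-ciliated cells (squares); filled symbols passed the test and 1 tested member is not drawn. Kcnh2 lies to the right in both states (2.54 and 3.03) and Kcnj16 to the left in non-ciliated cells only (-2.66, against 0.43 in ciliated cells).

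Whether the effect of the mutations differed between the states was tested as an interaction. Kcnj16 was the 1 member of 17 that passed, against 1.19% of 12544 genes. Its effect was 3.09 log2 units higher in ciliated cells (SE 0.50, edgeR, adjusted p = 0.000301). Leaving out each clone gave 1.997 (without the ciliated Wdr34 clone 3) to 4.22 (without the non-ciliated Wdr34 clone), called in each case, while summed clones and a limma fit with the clone as a block both gave an adjusted p of 1. For Kcnh2 the interaction was -0.49 (SE 0.88, adjusted p = 0.849), and without AB it was -2.65 (adjusted p = 0.0459).

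Single mutant clones were also set against the controls of their state. In the non-ciliated Wdr60 clone 5 of 14 members lay outside the range of the 4 controls (36.1% of all genes did), and in the ciliated one 8 of 15 (30.2% of all genes). Counted after the values were seen, 5 of 13 members tested in both states lay outside on the same side in both, among them Kcnh2 and Kcnj4 above and Kcnj16 and Kcnk5 below, against 13.6% of 11709 genes. Kcnh2, known to be higher when the family was picked, is part of each of these counts and lends no support there. The study describes a single Wdr60 clone, so the Wdr60 libraries of both states would be of the same clone, although the labels do not pair them. Agreement between the states is then not independent.

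For the Wdr34 clones, outside the controls lay 5 of 14 members in the non-ciliated Wdr34 clone (35.1% of all genes), 8 of 15 in the ciliated clone 1 (22.1%) and 6 of 15 in clone 3 (33.9%). The counts of the ciliated clones include Kcnh2, known beforehand to be higher. The non-ciliated clone shared a side with clone 1 for 2 of 13 members, Kcnj4 above and Kcnip4 below (6.88% of genes), and with clone 3 for 1 of 13, Kcnk10 above (7.34% of genes). Kcnj16 was on opposite sides in the non-ciliated Wdr34 clone and clone 3.

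Genes beside Kcnh2 and Kcnj16 on the chromosome were also compared. The 10 tested genes nearest to Kcnh2, among them Nos3 and Cdk5, had log2 fold changes of -0.05 to 0.54 in ciliated and -0.47 to 0.52 in non-ciliated mutants. The 10 nearest to Kcnj16, among them Sox9, had -1.14 to 0.54 and -0.37 to 1.22. Kcnj2, which lies next to Kcnj16 (chr11:111066164-111076825), was too low for the main tests, with 1.35 CPM in Wdr34 clone 3 and at most 0.613 elsewhere. With every gene of at least 1 count tested, it was called lower in non-ciliated mutants, as Kcnj16 was (-2.21, adjusted p = 0.0301, edgeR). Unlike Kcnj16, its clones overlapped, at 0.0892 and 0.0293 CPM in the Wdr34 and Wdr60 clones and 0.0816–0.613 in the controls. Both mutants and control 3 lay under 0.105 CPM, the lowest value that 0 counts in a library allow.

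The largest number of changes was between states. In control clones, 4 of 15 members were higher in ciliated cells, Kcnh3, Kcnj4, Kcnn1 and Kcnab2, against 6.29% of 11856 genes. Lower were 3 of 15, Kcnk10, Kcnk2 and Kcnj14, against 3.99% of all genes. Kcnh3 was too low to be tested within non-ciliated cells and Kcnk2 within ciliated cells, so that each entered this comparison through the state where it is high and had to differ; the other 13 members held 3 higher and 2 lower. Clone means did not overlap for 4 of 15 (Kcnh3, which had to differ, Kcnj4 and Kcnn1 higher and Kcnk10 lower), against 23% of all genes. The median log2 fold change was 0.61 over members and 0.02 over all genes, and 12 of 15 members were positive, both with Kcnh3 and Kcnk2 included.

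Kcnh3 (chr15:99224517-99242818), a brain-enriched voltage-gated subunit of the same ether-a-go-go group as Kcnh2, had the largest rise of the 15 tested, having passed the filter through ciliated cells. It was at 1.83, 3.25, 1.13 and 1.33 CPM in D8, H12, A4 and G7, and at 0.354, 0.167, 0.520 and 0.173 in AB and controls 1, 2 and 3. Its change was 2.61 log2 units (SE 0.28; edgeR, adjusted p = 1.61e-09; exact permutation p over clones 0.0286, the smallest possible). Because Kcnh3 entered through the state where it is high, these p-values lend no support to a rise. Mutants had 2.78, 1.43 and 2.78 in ciliated and 0.0611 and 0.466 in non-ciliated cells, so that every ciliated clone lay above every non-ciliated one.

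Kcnj4 was at 7.73, 10.0, 11.8 and 6.23 CPM in D8, H12, A4 and G7, above the 3.28–5.11 of the non-ciliated controls, a difference of 1.21 log2 units (SE 0.15; edgeR, adjusted p = 1.67e-08; exact permutation p 0.0286). Kcnn1 (chr8:70843158-70865691), the small-conductance calcium-activated subunit SK1, was at 10.6, 12.2, 13.4 and 16.2 in D8, H12, A4 and G7 and at 5.27, 2.39, 9.67 and 5.52 in AB and controls 1, 2 and 3. Its ciliated clones lay above all non-ciliated clones, and controls differed by 1.19 log2 units (SE 0.19; edgeR, adjusted p = 2.73e-06; exact permutation p 0.0286). It was 0.94, under the limit of 1, without control 1.

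Kcnab2 (chr4:152390744-152477549), a beta subunit of voltage-gated channels related to aldo-keto reductases, was at 6.47, 14.9, 7.51 and 11.9 CPM in D8, H12, A4 and G7. Non-ciliated controls had 3.98, 2.96, 10.1 and 1.84 in AB and controls 1, 2 and 3, so that only control 2 reached the ciliated range. edgeR gave 1.10 log2 units (SE 0.27, adjusted p = 0.000633; exact permutation p 0.0857). It was 1.78 without control 2, and 0.94, 0.84 and 0.87 without control 1, control 3 and H12.

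Kcnk10 (TREK2, chr12:98429432-98578213), a background channel opened by stretch and fatty acids, fell most of the 15 tested. It was at 0.938, 0.571, 0.758 and 0.652 CPM in D8, H12, A4 and G7 and at 3.77, 3.83, 2.14 and 2.09 in AB and controls 1, 2 and 3. The change came to -2.02 log2 units (SE 0.19, edgeR, adjusted p = 1.14e-10; exact permutation p 0.0286). Mutants had 0.847, 0.993 and 1.57 in ciliated and 5.15 and 3.29 in non-ciliated cells, again without overlap between states.

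Its relative Kcnk2 (chr1:189207930-189402782) was at 0.701, 0.0803, 0.760 and 0 CPM in D8, H12, A4 and G7, and at 1.04, 1.12, 0.166 and 2.67 in AB and controls 1, 2 and 3. Control 2 lay within the ciliated range. In edgeR the change was -1.71 log2 units (SE 0.56, adjusted p = 0.0085; exact permutation p 0.143), and it was -1.03 (adjusted p = 0.139) without control 3. Because Kcnk2 entered through the non-ciliated state, where it is high, these p-values lend no support to a fall.

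Kcnj14 (Kir2.4, chr7:45816467-45824747), an inward rectifier, was at 1.29, 0.481, 0.723 and 0.675 CPM in D8, H12, A4 and G7 and at 0.963, 1.49, 4.03 and 2.31 in AB and controls 1, 2 and 3. D8 and AB overlapped. By edgeR it changed by -1.47 log2 units (SE 0.27, adjusted p = 2.7e-05; exact permutation p 0.0571), and -1.01 without control 2. The exact p over clones, adjusted over all genes tested, was 0.124 at best. With the libraries of a clone summed, edgeR called 3 members higher, Kcnh3 (adjusted p = 0.0207), Kcnj4 (0.0246) and Kcnj13 (0.0359), and 1 lower, Kcnk10 (0.0136). Of these, Kcnh3 and Kcnj13 were too low for the main tests within non-ciliated cells, so their calls lend no support to a rise. With every gene of at least 1 count tested, Kcnq1 (2.97) and Kcng3 (2.66) were called with larger rises than Kcnh3 (2.61), and Kcnip1 (-3.06), Kcnj10 (-2.48) and Kcna5 with larger falls than Kcnk10 (-2.01). Kcnq1 was high in 1 clone, at 2.30 CPM in H12 and at most 0.142 in the other ciliated controls. Kcng3 had 19 counts in 7 libraries, with its highest mean in G7, and Kcna5 had 8 in 3 libraries, with its highest mean in control 2.

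**Figure D5:**
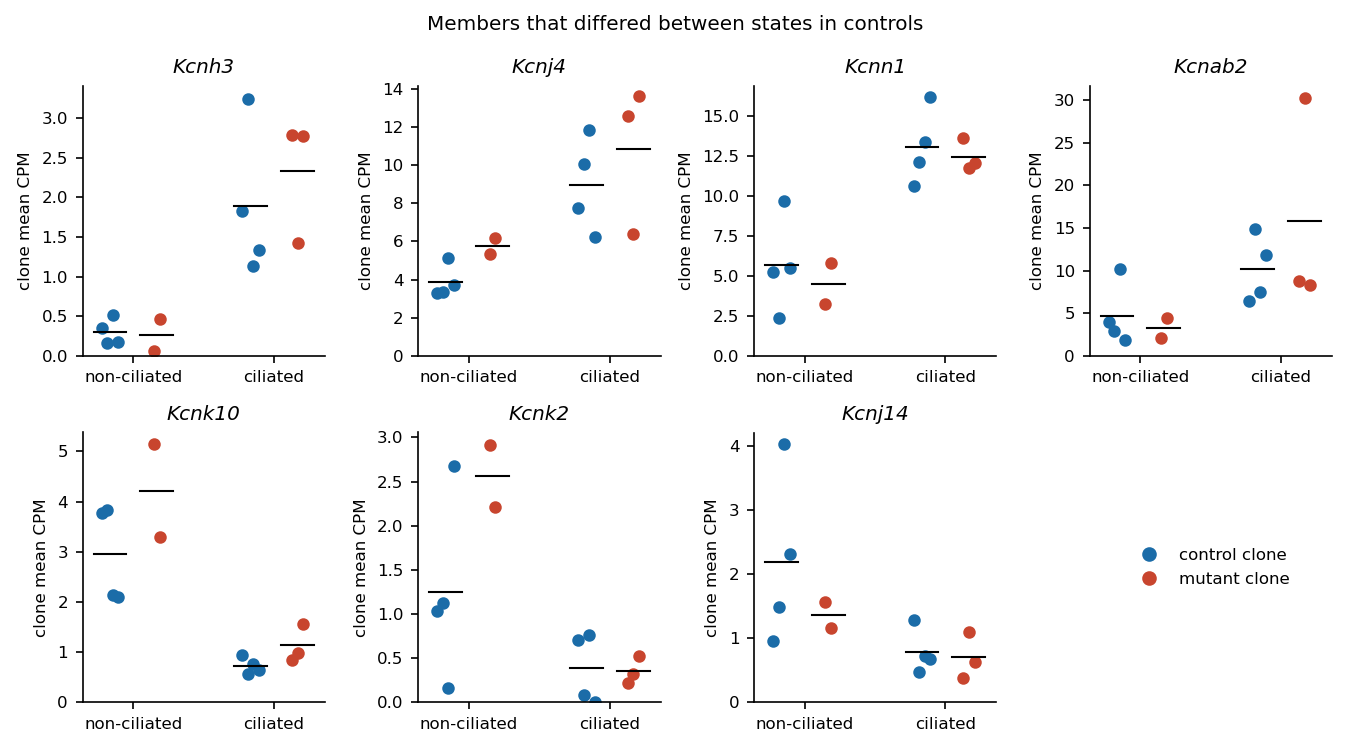
Clone mean CPM of the 7 members that differed between states in controls, by state, with controls in blue, mutants in red and a bar at each group mean. Ciliated clones of Kcnh3 (1.13 to 3.25) lie above all non-ciliated clones (0.0611 to 0.520), and those of Kcnk10 (0.571 to 1.57) below them (2.09 to 5.15). Kcnh3 and Kcnk2 each entered the comparison through the state where it is high and had to differ.

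Among the members not called between states, Kcnk5 had a log2 fold change of 0.01 (SE 0.15, adjusted p = 0.944, edgeR), Kcnk1 of 0.41 (SE 0.23, adjusted p = 0.129; 0.61 without G7 and 0.09 without control 2) and Kcnh2 of 1.19 (SE 0.62, adjusted p = 0.095). Kcnj16 had 0.86 (SE 0.19, adjusted p = 0.000191), under the limit of 1. Without G7, 3 more members passed as higher, among them Kcnh2 at 1.59 and Kcnj16 at 1.12. Without AB, the non-ciliated control with the most Kcnh2, Kcnh2 passed at 3.34 (adjusted p = 1.41e-05, edgeR) and Kcnj16 at 1.07. Csf1r, a leukocyte marker, was higher by 2.66 in ciliated controls (adjusted p = 1.76e-14, edgeR), and the fibroblast marker Col1a1 was lower by 1.46 on the log2 scale. Another leukocyte marker, Ptprc, went the other way (mean 0.160 CPM in ciliated and 0.447 in non-ciliated controls). So did the fibroblast marker Dcn (0.368 and 0.0346). Higher as well were the kidney cadherin Cdh16 (1.08, adjusted p = 6.76e-08) and the collecting duct gene Hsd11b2 (2.08, adjusted p = 2.65e-05, edgeR). The part of these genes in the state differences was not tested. In bulk RNA, fewer cells of a type and less RNA per cell cannot be told apart.

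The control clones also differed among themselves. The highest control was 2.3 times the lowest for the median member in ciliated cells (1.35 times for Kcnq1ot1, 27.7 times for Kcnh2) and 3.34 times in non-ciliated cells (1.52 to 27 times, Kcnh2 at the top). Of the ciliated controls, G7 was the lowest or highest for 11 of 15 members, and of the non-ciliated controls, control 2 for 12 of 14. Kcnab3 was at 41.7 CPM in G7 and 17.5–21.3 in the other ciliated controls, with the mutants at 19.2–25.5; in non-ciliated cells it was at 11.9–19.9 in controls and 14.5 in both mutants.

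Other genes of potassium handling, 38 in all, were taken from a list of accessory proteins, pumps, cotransporters and their regulators. In ciliated mutants 19 were tested, with a median log2 fold change of -0.06; the kinase Sgk1 had -1.41 (SE 0.52, adjusted p = 0.13, edgeR), and -1.76 without G7 (adjusted p = 0.0147). In non-ciliated mutants 2 of 18 were lower (2.57% of all genes were), the kinases Stk39 (SPAK, -2.92, adjusted p = 0.0135) and Wnk4 (-1.05, adjusted p = 0.0376), which regulate cotransporters of the distal nephron. Both overlapped: Stk39 was at 2.20 and 0.504 CPM in the mutants and 0.725–22.5 in the controls, and Wnk4 at 21.5 and 35.6 in the mutants, with controls at 31.4–39.9 and 131 in control 2. Without control 2 the change of Wnk4 was -0.32 (adjusted p = 0.0802, edgeR), no longer called, and that of Stk39 was -2.68 (adjusted p = 0.032). Between states 1 of 19 was higher, the sodium pump subunit Atp1b2 (2.40, adjusted p = 3.71e-10), and 1 lower, the pump regulator Fxyd5 (-1.41, adjusted p = 0.00463), against 6.29% and 3.99% of all genes. Atp1b2, at a mean of 0.471 CPM in non-ciliated controls, was too low to be tested within non-ciliated cells. It entered this comparison through the state where it is high and had to differ, so its p-value and count lend no support.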

How the data were processed

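Reads were mapped by the authors with Rsubread (GRCm38/mm10) and assigned to gene symbols with featureCounts under R 3.4.4; strand setting and treatment of multimapping reads are not given in the sources used here, so that overlapping genes and close copies are uncertain. As deposited, the values are whole-number counts per symbol that were not normalized, with 14816218–28084979 counts per library. Upstream differential testing by the authors used DESeq2 1.18.1, per the submitters' processing notes.

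Members and all gene lists were chosen with earlier results of these data known. Here, counts were tested with R 4.3.3 and edgeR 4.0.16 (filterByExpr, TMM, quasi-likelihood F tests, 2-sided, Benjamini-Hochberg adjustment over all genes tested), within ciliated libraries, within non-ciliated libraries, over control libraries for state, and over all 52 for the interaction. SE is the size of the log2 fold change divided by the square root of F. Means of log2 CPM per clone were permuted exactly over clones (2-sided); the smallest p is 0.0286 for 3 or 4 against 4 clones and 0.0667 for 2 against 4. The scripts were tested on simulated data. Alternatives were DESeq2 1.42.0, RLE factors, 2 other count filters, summed clones, limma 3.58.1 (voomLmFit, clones as blocks), a block for replicate number, other thresholds, and leaving out clones or replicate numbers.

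Named with values were Kcnh2, members called in mutants or in the interaction, up to 8 members called between states in each direction, and the 8 highest per length; others named (Kcnip1, Kcnip4, Kcna5, Kcng3, Kcnj13, Kcnq1ot1, Kcnj1, Kcnj2, Kcnj10, Kcnma1, Kcnk4, Kcnq1, Sgk1 and the neighbours) were picked after their values were seen. Values of 1 tested member are not reported here. All 97 members matched RefSeq and GENCODE vM21 (GRCm38), which gave coordinates, exon lengths and coding sequence; protein sequences were translated from it.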

Additional observations from a re-analysis of the deposited data

Results flagged for a closer look

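Among the 4 clones of a group, 3 values stood far from the other clones by Dixon's gap test, of 50 groups of 4 tested; chance gives about 1 in 20. Kcnh2 was at 5.14 CPM in the non-ciliated control AB, against 0.190–0.551 in controls 1, 2 and 3. Kcnk1 was at 93.7 CPM in the ciliated control G7, against 185–188 in the other ciliated controls, and Kcnab3 was at 41.7 CPM in G7, against 17.5–21.3. G7 is also the ciliated control with 14.7 CPM of Cdh1; its part in these values was not tested.

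The effect of the mutations on Kcnj16 differed between the states by 3.09 log2 units (edgeR interaction, SE 0.50, adjusted p = 0.000301). It was 1.997 without the ciliated Wdr34 clone 3, and it was not called with summed clones or with the clone as a block. Both non-ciliated mutant clones lay below all controls, whereas of the ciliated mutants 1 lay above, 1 within and 1 below the controls.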

How the results depend on the processing

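Of the alternative values, 353 kept their direction and side of the threshold, 31 counts moved, 22 values lost their call, 2 gained it and 6 reversed. With at least 10 counts required in every library, Kcnh2 could be tested in neither state and Kcnj16 not in non-ciliated cells, and the counts of members fell to 0 higher in ciliated mutants, 0 higher and 0 lower in non-ciliated mutants, 0 lower between states and 0 in the interaction, because fewer genes were tested. With libraries of a clone summed, so that fewer samples entered, these counts were 0, 0, 0, 1 and 0, and adjusted p was 0.197 for Kcnab2, 0.0926 for Kcnj14, 0.368 for Kcnk2 and 0.0712 for Kcnn1 between states. With the clone as a block (limma), 0 members were higher in non-ciliated mutants (Kcnh2 3.44, adjusted p = 0.419), 1 lower between states and 0 in the interaction, while Kcnh2 in ciliated mutants (3.45, adjusted p = 0.0459) and Kcnj16 in non-ciliated mutants (-2.94, adjusted p = 0.0298) kept their calls. With at least 1 count in any library, 2 members were lower in non-ciliated mutants (Kcnj2 added) and 11 higher and 6 lower between states. An adjusted p alone gave 2 higher (Kcnj4 added) and 2 lower (Kcnk5 added) in non-ciliated mutants and 8 higher between states; the cause of other differences was not tested.

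Leaving out clones gave 0 to 2 higher in non-ciliated mutants (0 without the Wdr60 clone, 2 without control 3, which adds Kcnk2) and 1 to 3 lower (3 without the Wdr34 clone, with Kcnk5 among those added), 2 to 7 higher between states (2 without control 1, 7 without G7) and 1 to 2 in the interaction (2 without the non-ciliated Wdr60 clone, which adds Kcnh3, or without AB, which adds Kcnh2). Kcnj16 in ciliated mutants ran from -0.68, without Wdr34 clone 3, to 0.88, and Kcnh2 in non-ciliated mutants from -0.18, without the Wdr60 clone, to 5.19. Without replicate number 2, 3 or 4, 0 members were higher in non-ciliated mutants (Kcnh2 adjusted p 0.0566 to 0.0666), and without 3, Kcnk2 lost its call between states (-1.40, adjusted p = 0.0624). Leaving out G7 and control 2 for further genes was added after the values were seen; it turned Kcnk1 to -0.19 in ciliated and -0.30 in non-ciliated mutants, Kcnab3 from -0.19 to 0.18 in ciliated mutants and Kcnk5 between states from 0.01 to -0.12 (without G7) or 0.26 (without control 2). Replicate numbers did not pair libraries (median correlation of same-numbered libraries 0.01 in both states; 7 of 24 and 9 of 28 libraries correlated best with their own number). The replicate block left all counts as they were, at 2.53 for Kcnh2 in ciliated and 3.03 in non-ciliated mutants, -2.67 for Kcnj16 in non-ciliated mutants and 3.09 for its interaction. On library totals without TMM factors, clone means failed to overlap for 1 member in each of the mutant comparisons and 4 between states. DESeq2 and RLE factors kept every count of members called.

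Depth limits the family: 1 CPM was 14.8 to 28.5 counts, and 80 or more members were too low for each test.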

Other observations

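A few members that were too low for the comparisons within a state stood out in 1 or 2 clones; they were picked after their values were seen and are given without a test. Kcnq1, the pore of the slow delayed rectifier, was at 2.30 ± 0.135 CPM (SD, 4 libraries) in the ciliated control H12 and at most 0.279 in the other 12 clones. Kcnk4 (TRAAK), a stretch-sensitive background channel, was at 1.42 CPM in G7 and 0.995 in the Wdr34 clone 3. Kcnj2 (Kir2.1), the inward rectifier next to Kcnj16, was at 1.35 CPM in the Wdr34 clone 3, 0.613 in control 2, 0.506 in G7 and at most 0.256 in the other 10 clones.

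The Wdr34 clone 3 also held 30.2 CPM of Kcnab2, against 6.47–14.9 in the ciliated controls and 8.28–8.81 in the other ciliated mutants.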
